A study of Mus musculus with 8 samples.

Results

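The glucocorticoid receptor gene Nr3c1, the mineralocorticoid receptor gene Nr3c2 and 8 genes that act with or below these receptors were followed in ATAC-seq peak lists of hippocampal microglia. In ATAC-seq a transposase inserts adapters into open DNA, and a peak is a stretch where the reads exceed the local background. The 10 members were chosen by name out of 21887 protein-coding genes. For each, every peak within the gene span and 20 kb on each side, here called its locus, was taken from each list. The lists came from 4 control (Ctrl) libraries and 4 FGR libraries, the label set against control in a series whose title names growth restriction in the womb. All 8 libraries came from mice aged 3 weeks after birth that carried 1 copy of a Tmem119-tdTomato reporter (Tmem119-tdTomato+/-), controls included. The labels do not give sex, the number of animals behind a library or how growth was restricted, so p-values measure only the spread between these libraries, which may be technical.

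The glucocorticoid receptor is a transcription factor that rests in the cytoplasm with heat shock protein chaperones until a steroid such as corticosterone binds it. It then enters the nucleus and binds DNA, often at a palindromic glucocorticoid response element. In microglia, the macrophages that reside in the brain, glucocorticoids are known chiefly as restraints on inflammation. A peak shows accessible DNA and not binding of the receptor or transcription of the gene.

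The libraries held 10862 to 24195 peaks in Ctrl and 23327 to 29501 in FGR, and the lowest local background of a list, a measure of depth, was 3.01 to 6.05 and 3.52 to 4.82 reads per base. Ctrl 1 and Ctrl 2 stood apart, with median peak widths of 566 and 522 bp against 353 to 386 bp in the other 6 libraries. FGR 1 and 3 placed 9.14% of their shared summits at the identical base and FGR 2 and 4 placed 7.57% there, against at most 2.14% in any other pair. Whether these pairs share animals or reads was not tested. For an SD, these FGR libraries were averaged to n = 2 pairs. The 4 Ctrl libraries were kept apart, since Ctrl 1 and 3, and Ctrl 2 and 4, shared at most 0.0396% of summits. This share cannot show that they are independent, because the summits of Ctrl 1 and Ctrl 2 were displaced against all other 6 libraries. Median summit distances were 138 to 140 bp in those comparisons and 22 to 44 bp among the other 6. Whether the Ctrl libraries share animals or reads was not tested. Of 8 microglia markers, 5 had a peak within 1 kb of a gene end in all 8 libraries and none lacked one in every library. Such a gene-end peak was absent from every library for 6 of 6 neuronal, 4 of 4 monocyte and neutrophil, 4 of 5 oligodendrocyte, 2 of 4 astrocyte, 2 of 3 lymphocyte and 2 of 3 erythroid markers. The oligodendrocyte gene Mbp had one in 2 libraries of each group. Mbp and the microglia markers Tmem119 and Cx3cr1 each held a region that all 4 FGR lists and no Ctrl list contained. The endothelial and mural list held 0.921 to 3.31 peaks per 10000 peaks of the library in Ctrl and 3.43 to 5.76 in FGR, with no gene-end peak in any library at 3 of its 4 markers and at Flt1 one in 1 Ctrl and 4 FGR libraries. The part of these markers in the differences below was not tested.

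Across the 10 loci the lists held 28, 17, 38 and 35 peaks in Ctrl 1 to 4 and 37, 38, 41 and 41 in FGR 1 to 4. Per 10000 peaks of the library these were 17.4, 15.7, 16.7 and 14.5 in Ctrl and 13.6, 16.3, 13.9 and 15.6 in FGR, and the groups overlapped. Joined across libraries, the peaks formed 59 regions of the 52251 in the series. Of these, 16 were called in all 8 libraries (27.1%, against 16.9% of all regions) and 18 in a single library (30.5% against 45.9%). By place, 10 regions overlapped the 1 kb around a gene end, 31 lay inside a gene span and 18 in the flanks. Regions called in every FGR library and no Ctrl library numbered 2, and both lay at Sgk1, which encodes a serum- and glucocorticoid-induced kinase. No region was called in every Ctrl and no FGR library. In the whole series 454 regions (0.869%) were of the first kind and 14 (0.0268%) of the second. In 3 member regions the groups differed by 3 or more libraries, and all 3 were called more often in FGR, as were 4.33% of all regions, against 0.216% called more often in Ctrl.

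Promoter windows from RefSeq (build GRCm38.p6), running from 250 bases before to 50 after a start site, were on hand for 8 members, 16 windows in all. Nr3c1 and Zbtb16 were not among them. Of the 16 windows, 6 overlapped a peak in 6 or more libraries (37.5%, against 27.4% of all 32851 windows), and these are shown. The rest are not shown to be closed. Among them, the Klf9 window overlapped a peak in 5 libraries and 1 Tsc22d3 window in 2. A further window of Sgk1, chosen after its letters were seen, is shown because it holds a full response element. Capitals mark AGAACA, the single arm of the response element, TGACG, the core of the cyclic AMP response element (CRE), and CACGTG, the E-box bound by clock factors and other basic helix-loop-helix proteins, each on either strand. The bases between the arms of the full response element are in capitals too. Neighbouring capitals can belong to overlapping matches. Each line runs 5′ to 3′ along its gene.
Fkbp5: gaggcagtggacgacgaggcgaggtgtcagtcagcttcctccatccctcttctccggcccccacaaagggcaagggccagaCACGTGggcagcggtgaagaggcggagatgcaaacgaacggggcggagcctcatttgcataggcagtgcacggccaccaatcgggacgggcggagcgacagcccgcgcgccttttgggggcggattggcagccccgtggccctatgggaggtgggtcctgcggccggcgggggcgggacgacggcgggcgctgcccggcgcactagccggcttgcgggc
Nr3c2: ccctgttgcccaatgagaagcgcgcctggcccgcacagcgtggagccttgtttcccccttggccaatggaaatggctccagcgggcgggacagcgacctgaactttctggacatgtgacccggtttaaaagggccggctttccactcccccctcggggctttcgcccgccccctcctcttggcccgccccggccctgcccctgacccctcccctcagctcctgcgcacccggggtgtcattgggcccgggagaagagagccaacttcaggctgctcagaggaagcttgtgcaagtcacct
Sgk1, proximal: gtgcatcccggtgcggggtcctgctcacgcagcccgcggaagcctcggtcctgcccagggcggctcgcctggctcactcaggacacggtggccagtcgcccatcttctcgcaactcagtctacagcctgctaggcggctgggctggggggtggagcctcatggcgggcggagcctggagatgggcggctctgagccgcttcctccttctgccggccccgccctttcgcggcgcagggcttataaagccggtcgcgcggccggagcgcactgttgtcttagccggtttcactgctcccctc
Per1, first: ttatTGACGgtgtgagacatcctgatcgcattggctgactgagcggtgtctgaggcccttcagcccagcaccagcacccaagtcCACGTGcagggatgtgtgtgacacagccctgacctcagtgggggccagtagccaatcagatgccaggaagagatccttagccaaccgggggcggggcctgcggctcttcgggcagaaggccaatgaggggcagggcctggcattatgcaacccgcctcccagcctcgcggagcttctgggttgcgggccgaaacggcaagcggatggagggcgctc
Per1, second: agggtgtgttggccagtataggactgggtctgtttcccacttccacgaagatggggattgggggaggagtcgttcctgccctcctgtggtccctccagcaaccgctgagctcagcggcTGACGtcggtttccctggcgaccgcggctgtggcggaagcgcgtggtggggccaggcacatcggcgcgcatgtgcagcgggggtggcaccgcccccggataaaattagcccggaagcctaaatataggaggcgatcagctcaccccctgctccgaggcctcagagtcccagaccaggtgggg
Dusp1: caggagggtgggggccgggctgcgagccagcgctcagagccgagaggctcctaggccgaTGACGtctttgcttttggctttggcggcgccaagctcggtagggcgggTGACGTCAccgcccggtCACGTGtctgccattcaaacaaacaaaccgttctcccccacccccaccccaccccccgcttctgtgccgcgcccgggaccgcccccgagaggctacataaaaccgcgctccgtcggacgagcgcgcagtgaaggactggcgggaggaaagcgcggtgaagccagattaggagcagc
Sgk1, with element: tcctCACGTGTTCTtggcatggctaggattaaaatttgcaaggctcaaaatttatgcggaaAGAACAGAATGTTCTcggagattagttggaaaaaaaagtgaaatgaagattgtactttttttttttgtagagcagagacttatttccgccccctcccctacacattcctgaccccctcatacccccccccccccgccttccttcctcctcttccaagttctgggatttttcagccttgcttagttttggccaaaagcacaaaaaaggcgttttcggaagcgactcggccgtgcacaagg
In this order, the windows are chr17:28486100-28486399 (minus strand), chr8:76902080-76902379 (plus), chr10:21994416-21994715 (plus), chr11:69098699-69098998 (plus), chr11:69099902-69100201 (plus), chr17:26508423-26508722 (minus) and chr10:21993640-21993939 (plus).

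None of the 6 windows called in 6 or more libraries held the full palindrome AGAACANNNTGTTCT or a single arm AGAACA. Over all windows the palindrome was found in 3 (0.00913%) and the arm in 19.0%, and over the 9005 windows called in 6 or more libraries they were found in 0% and 10%. TGACG stood in 3 of the 6, the Dusp1 window and both Per1 windows, against 37.8% of the called and 20.8% of all windows. The full CRE palindrome TGACGTCA, which contains TGACG, stood in 1 of the 6, that of Dusp1, against 4% of the called and 1.79% of all. CACGTG stood in 3 of the 6, those of Fkbp5, Per1 (first) and Dusp1, against 11.5% of the called and 7.15% of all. The GC box GGGCGG stood in all 6, against 72.0% of the called and 35.7% of all. The other motifs searched were TGANTCA, the AP-1 site, in 0 of the 6 (3.52% and 7.81%), and GAGGAA, the ETS core, in 4 of the 6 (25.5% and 28.3%). A match describes letters and is no evidence that a factor binds there.

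The plot of peaks by member shows which loci hold many and few. Per1 held 13.4 peaks per 100 kb of locus on average over the 8 libraries, which placed it at percentile 99.8 of all loci, and Dusp1 held 7.29 (percentile 93.9). Both are short genes, of 14858 and 2882 bp in loci of 54.9 and 42.9 kb, so most of each locus was flank. Several of the Per1 regions in the flanks overlapped neighbouring genes. Fkbp5, Tsc22d3, Sgk1 and Nr3c1 held 3.83, 3.71, 3.09 and 3.02, above the median of 1.76 over all loci. Klf9 (1.87) and Hsd11b1 (1.37) lay near it, while Zbtb16 (0.613) and Nr3c2 (0.549), both long genes, lay below it.

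**Figure D1:**
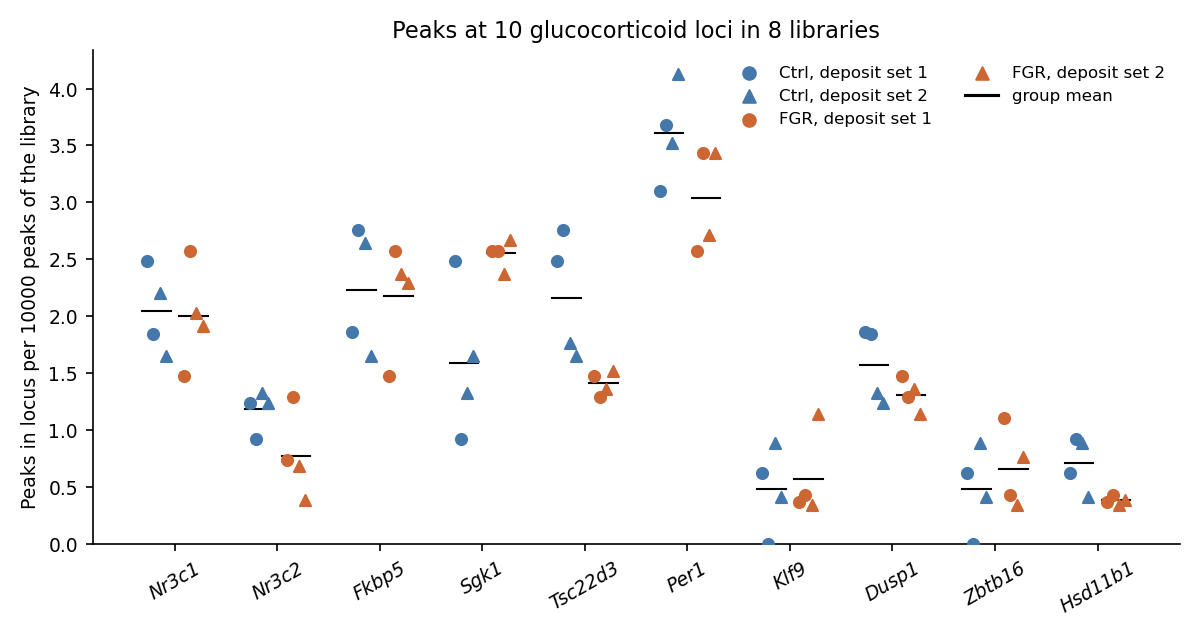
Peaks in the locus of each member, per 10000 peaks of the library (y axis), for 8 libraries; points are libraries, shapes the deposit sets (replicates 1 and 2 against 3 and 4) and black lines group means. All 4 FGR points of Sgk1 lie between 2.37 and 2.67, a range that Ctrl 1 (2.48) enters and the other 3 Ctrl libraries do not.

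The receptors came first. Nr3c1 (chr18:39410545-39519421) held 4, 2, 5 and 4 peaks in Ctrl 1 to 4 and 4, 6, 6 and 5 in FGR 1 to 4, and the groups overlapped. Its 2 steadiest regions lay side by side inside the gene, at chr18:39489226-39490837 and chr18:39490951-39491950, 28584 and 27471 bp from the upper gene end, and both were called in all 8 libraries. By −log10 q, the authors' measure of how far a peak exceeds background, the first ranked between percentile 30.7 and 80.8 of its lists and the second between 37.8 and 84.2. Another region inside the gene (chr18:39416494-39417177) was missed only by Ctrl 2, the library with the fewest peaks. The region at the upper gene end (chr18:39519557-39520107) was called in Ctrl 1 and Ctrl 4 and in all 4 FGR libraries. Its −log10 q was 4.12 and 4.17 in those Ctrl libraries and 7.97, 6.16, 6.01 and 9.77 in FGR 1 to 4, and its fold over local background 3.33 and 3.10 against 4.55, 4.01, 3.81 and 4.42. Ctrl 2 and Ctrl 3 had no value there, and how many regions of the series differ in this way was not counted. These are the authors' values of single lists and were not tested.

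Nr3c2 (chr8:76898083-77245012) encodes the mineralocorticoid receptor, which binds corticosterone with higher affinity than the glucocorticoid receptor does. The locus held 2, 1, 3 and 3 peaks in Ctrl and 2, 3, 2 and 1 in FGR. Its strongest region, chr8:76901737-76902622, covered the start site and was called in all 8 libraries, between percentile 68.5 and 98.4. A weaker neighbour 2672 bp upstream of the start site, chr8:76899077-76900024, was called in 3 libraries of each group. Beyond these, the long gene held only 1 region, called in Ctrl 3.

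Hsd11b1 (chr1:193221640-193264045) encodes the enzyme that regenerates active glucocorticoid from its inert 11-keto form inside cells. Its start site was not called in any of the 8 libraries, nor was either gene end. The single region present in all 8 (chr1:193201266-193201895, percentile 43.6 to 94.3) lay 19745 bp outside the gene and overlapped the neighbouring gene Traf3ip3. The other region of the locus, called in Ctrl 3 only, overlapped the neighbour G0s2.

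Fkbp5 (chr17:28398753-28486149) encodes a co-chaperone that lowers the receptor's affinity for hormone and is itself induced by it. Its start-site region, chr17:28485376-28486676, was the strongest of all members by median percentile (98.4). Its fold was 6.47, 5.79, 7.54 and 6.81 in Ctrl 1 to 4 and 9.06, 8.38, 9.89 and 9.07 in FGR 1 to 4. Its pileup, the reads over the summit, was 65, 38, 70 and 80 in Ctrl and 70, 59, 92 and 77 in FGR, and these overlapped. The fold also depends on the local background. How many regions of the series order their folds in this way was not counted, and the difference was not tested. The region ranked at percentile 92.8 or above in every library. Inside the gene, regions with summits 65.5 and 78.5 kb downstream of the start site (chr17:28420191-28421167 and chr17:28407373-28408086) were also called in all 8, at median percentiles of 80.2 and 59.6.

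Between these lay regions called unevenly. One, chr17:28432021-28432406, with its summit 53.9 kb downstream of the start site, was called in FGR 2, 3 and 4 and in no Ctrl library. Its −log10 q was 2.97, 4.80 and 5.81 there. A neighbour (chr17:28433075-28433326) was called only in FGR 2 and 4, and another (chr17:28462550-28462818) only in FGR 1 and 3. Over the 10 members, 5 regions were called in exactly 2 FGR libraries and no Ctrl library, 3 of them in FGR 1 and 3 and 2 in FGR 2 and 4. Those pairs held 77.0% of the 3790 such regions in the whole series and are the pairs with many identical summits. The locus as a whole held 3, 3, 6 and 4 peaks in Ctrl and 4, 6, 7 and 6 in FGR, and the groups overlapped.

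**Figure D2:**
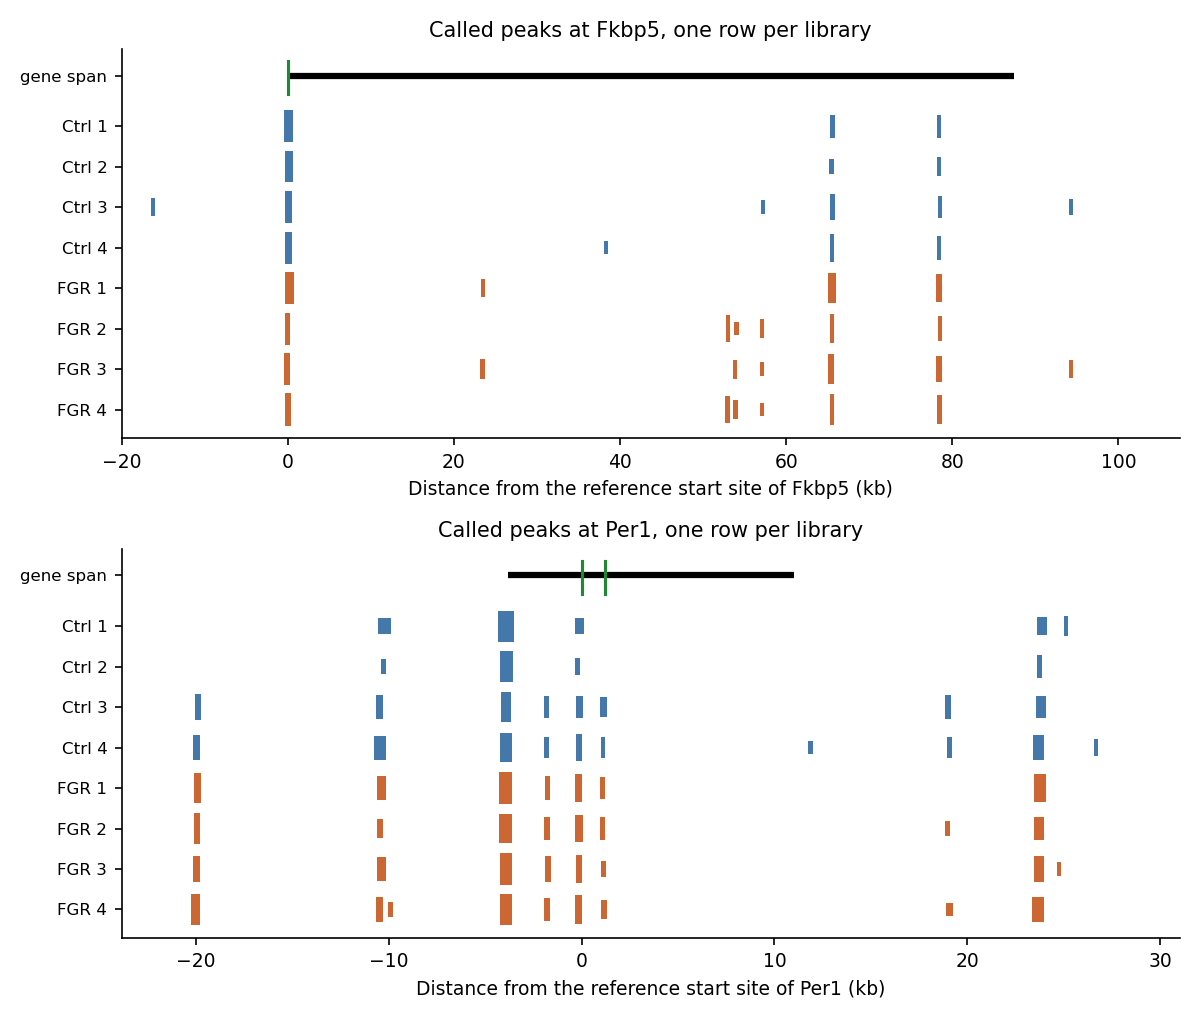
Peaks called in each library (rows; blue Ctrl, orange FGR) against distance in kb from a start site of Fkbp5 (upper panel) and Per1 (lower panel), positive in the direction of transcription. Taller bars rank higher in their list, narrow peaks are widened to stay visible, the black bar is the gene span and green ticks are RefSeq start sites. The start site and the regions at 65.5 and 78.5 kb of Fkbp5 appear in all 8 libraries.

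Sgk1 (chr10:21882184-21999903) encodes a kinase that regulates ion channels and was named for its induction by serum and glucocorticoids. Its locus held 4, 1, 3 and 4 peaks in Ctrl 1 to 4 and 7, 6, 7 and 7 in FGR 1 to 4. Every FGR count lay above every Ctrl count, as was so for 331 of 8037 tested loci (4.12%), in lists that were mostly longer in FGR. Per 10000 peaks of the library the values were 2.48, 0.921, 1.32 and 1.65 in Ctrl and 2.57, 2.57, 2.37 and 2.67 in FGR. On this scale Ctrl 1 fell within the FGR range. The mean was 1.59 ± 0.664 in Ctrl (SD, n = 4 libraries) and 2.55 ± 0.104 in FGR (SD, n = 2 pairs). These SDs have unlike bases and cannot be compared. With Ctrl 1 and 3, and Ctrl 2 and 4, averaged in the same way, the Ctrl SD was 0.435 (n = 2 pairs).

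The most proximal start site of Sgk1 was accessible in every library. The region over it, chr10:21993950-21994923, had folds of 3.41, 3.52, 4.06 and 4.10 in Ctrl 1 to 4 and 4.68, 4.58, 4.20 and 4.09 in FGR 1 to 4. These ranges overlapped, and the percentiles ran from 53.0 to 89.8. A region 47.5 kb upstream of this start site (chr10:21946714-21947399) was missed only by Ctrl 2. The region at the upper gene end (chr10:22000360-22000836) was called in Ctrl 1, Ctrl 3 and all 4 FGR libraries. None of the windows at the other 5 RefSeq start sites overlapped a peak in any library. One of those, 776 bases upstream, is the last sequence printed above. It holds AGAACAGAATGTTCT, a full response element, at chr10:21993701-21993715. This element lay 235 bp outside the region called in all 8 libraries, and 349 bp from a region called in FGR 4 only. The other windows with the palindrome, those of Acnat2 and Gm35041, overlapped no peak either.

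The FGR-only regions of Sgk1 lay farther upstream, inside the annotated gene span. The first, chr10:21890284-21890678, had its summit 104.2 kb upstream of the proximal start site and 8307 bp downstream of the most distal one. Its fold was 4.42, 4.18, 4.73 and 3.89 and its summit pileup 24, 22, 30 and 27 reads in FGR 1 to 4, at percentiles 56.0, 41.3, 66.9 and 46.0. The second, chr10:21976289-21976703, lay 18.2 kb upstream of the proximal start site and 2171 bp upstream of another start site. Its fold was 3.86, 6.47, 3.49 and 5.34 and its pileup 18, 29, 21 and 29 reads. It was thus higher in FGR 2 and 4 than in FGR 1 and 3, the pairs with many identical summits. Beside the first region, Ctrl 1 and Ctrl 4 had a peak 410 and 588 bp away (chr10:21889436-21889874), which FGR 1, 2 and 4 also had.

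A region that is not called is not shown to be closed. In the Ctrl lists, 37.9% to 63.3% of peaks had a fold at or below 3.89, the lowest FGR fold of the first region. For the second region, whose lowest fold was 3.49, the share was 35.7%, 20%, 27.2% and 49.5% in Ctrl 1 to 4. The smallest summit pileup of any called peak was 14, 11, 13 and 16 reads in Ctrl 1 to 4. The pileup of the Ctrl libraries at these 2 regions cannot be read from their lists. When every list was cut to its 10862 strongest peaks, the length of the shortest, the first region was called in 1 FGR library and the second in 2, so that neither was FGR-only. With peaks of −log10 q of at least 5, the first remained FGR-only and the second was called in 2 FGR libraries. Fisher's exact test per region reached its smallest possible p of 0.0286, and no region of the series passed after Benjamini-Hochberg adjustment (smallest adjusted p = 1). This test counted every library singly, the FGR pairs with many identical summits included. At least 1 FGR-only region lay in the loci of 560 of 21887 genes (2.56%), and 2 or more in those of 20 (0.0914%), Sgk1 included. These shares take no account of locus size, and the Sgk1 locus spanned 158 kb and held 10 regions.

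**Figure D3:**
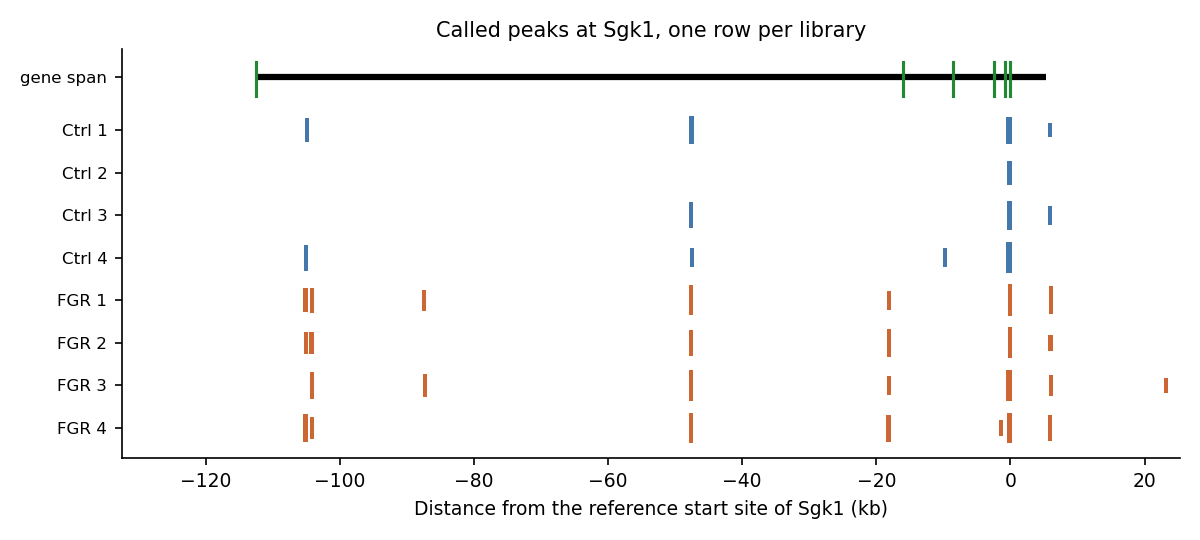
Peaks called at Sgk1 in each library (rows; blue Ctrl, orange FGR) against distance in kb from the proximal start site, negative upstream; bar height rises with the peak's rank in its list and green ticks are start sites. The regions at 104.2 and 18.2 kb upstream are present in 4 FGR and 0 Ctrl rows, and the proximal start site in all 8.

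The other targets are regulators. Tsc22d3 (chrX:140539528-140600522), which encodes the anti-inflammatory leucine zipper protein GILZ, held 4, 3, 4 and 4 peaks in Ctrl and 4, 3, 4 and 4 in FGR. A region whose summit lay 533 bp upstream of its most downstream start site (chrX:140542846-140543612) was called in all 8 libraries, between percentile 10.3 in Ctrl 2 and 92.1 in FGR 2. So was a region in the flank, chrX:140520119-140520708, 22.3 kb downstream of that start site, at a median percentile of 82.2. Another flank region (chrX:140537660-140538139) was missed only by Ctrl 2. The region at the upper gene end (chrX:140599012-140599698) was called in all 4 Ctrl and in 3 FGR libraries, and was missed only by FGR 2. The counts were equal in both groups, and the FGR share of the locus was lower after division by list length. It was 2.48, 2.76, 1.76 and 1.65 per 10000 in Ctrl and 1.47, 1.29, 1.36 and 1.52 in FGR. With lists of equal length, the log2 difference was −0.24 ± 0.14 (SE; limma adjusted p = 0.614), by the test described below. Every FGR share lay below every Ctrl share, as at 466 of 8037 loci (5.80%).

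Per1 (chr11:69095108-69109965), a repressor of the circadian clock that glucocorticoids induce, held 5, 4, 8 and 10 peaks in Ctrl and 7, 8, 8 and 9 in FGR. Its strongest region (chr11:69094619-69095433) lay over the annotated gene start, 3921 bp upstream of the first RefSeq start site in the promoter table, and ranked between percentile 81.5 and 96.7. The first promoter window fell in a region called in all 8 libraries (chr11:69098582-69099087, percentile 19.5 to 83.6). The second (chr11:69099884-69100249) was called in all libraries but Ctrl 1 and 2. So were regions at chr11:69078701-69079194 and chr11:69096984-69097339. Other regions of all 8 libraries in the flanks overlapped the neighbours Vamp2 (chr11:69088167-69089144) and Hes7 (chr11:69122301-69123066).

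Dusp1 (chr17:26505591-26508472) encodes a phosphatase that switches off MAP kinases, and it held 3, 2, 3 and 3 peaks in Ctrl and 4, 3, 4 and 3 in FGR. Its start-site region (chr17:26507962-26508949, percentile 43.7 to 84.2) and a region 10.8 kb downstream of the start site (chr17:26497270-26498058, percentile 38.6 to 95.1) were called in all 8 libraries. A region between them (chr17:26502884-26503361) was missed only by Ctrl 2. Just upstream of the start site, chr17:26509186-26509738 was called only in FGR 1 and 3.

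Klf9 (chr19:23141226-23168129), a Krüppel-like factor gene, held 1, 0, 2 and 1 peaks in Ctrl and 1, 1, 1 and 3 in FGR. Its start-site region (chr19:23140686-23141676) was called in 3 libraries of each group. Zbtb16 (chr9:48651797-48836225), which encodes the zinc finger repressor PLZF, held 1, 0, 2 and 1 peaks in Ctrl and 3, 1, 1 and 2 in FGR. No gene-end peak was called there. Its main region, chr9:48817313-48817766, lay 18459 bp inside the upper gene end and was called in 7 libraries, all but Ctrl 2. Both loci fell below the mean of 2 peaks needed for the test that follows, as did Hsd11b1.

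**Figure D4:**
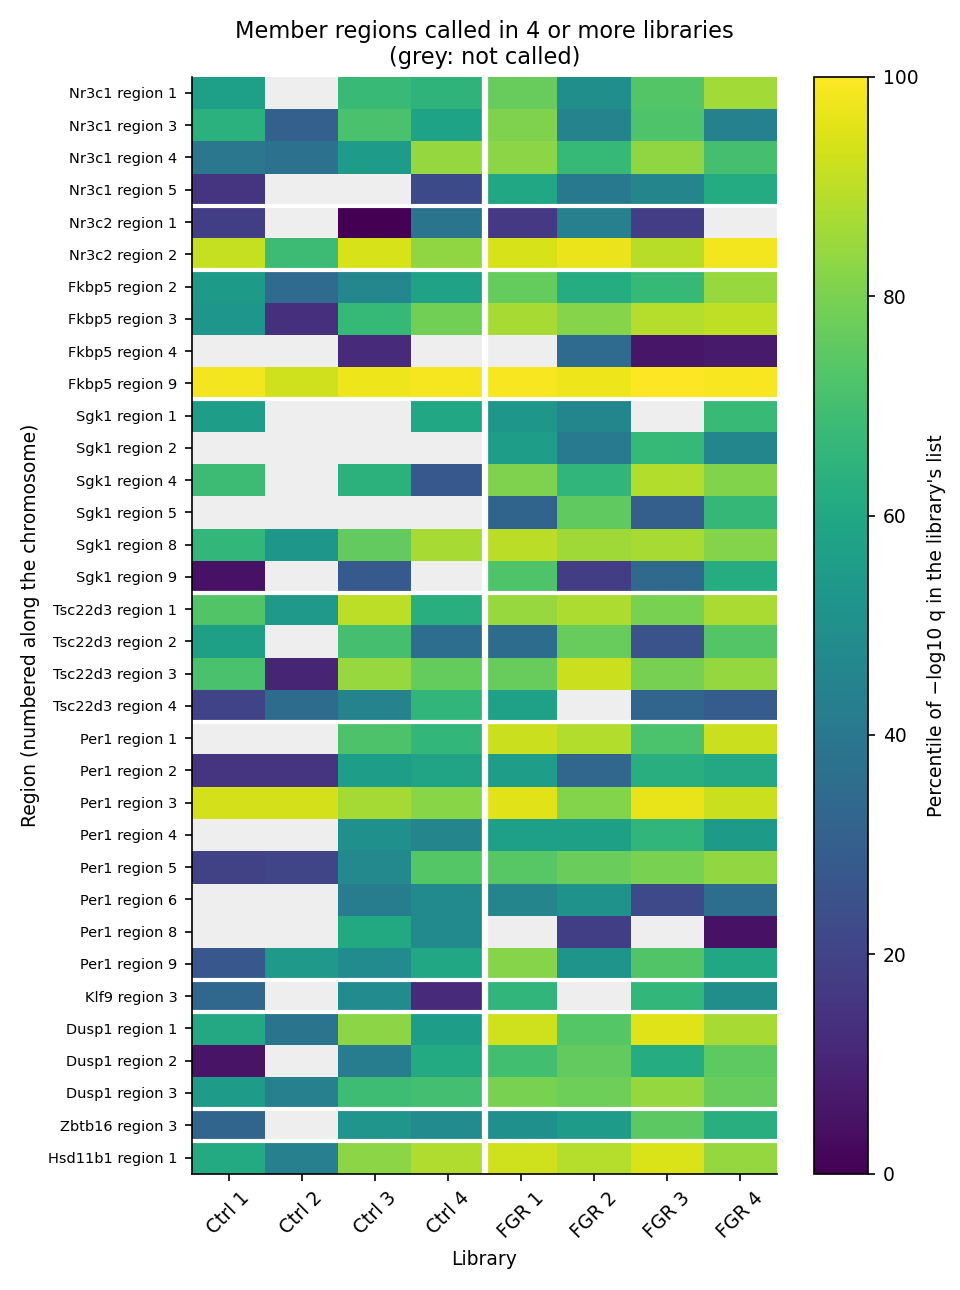
Percentile of −log10 q within its own list (colour) for each member region called in 4 or more libraries (rows, numbered along the chromosome) in 8 libraries (columns, Ctrl left, FGR right); grey means not called. Fkbp5 region 9, the start site, is bright in all 8, Sgk1 regions 2 and 5 are grey in every Ctrl library, and 8 of the 59 regions were missed only by Ctrl 1, Ctrl 2 or both.

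Peaks per locus were compared between groups with limma over 8037 loci, after adding 0.5 to each count, dividing by the length of the list in units of 10000 peaks and taking log2. None of the 7 tested members passed an adjusted p of 0.05. Over all tested loci, limma called 1 higher in FGR (0.0124%) and 0 lower (0%), while 209 (2.60%) and 1256 (15.6%) had an unadjusted p under 0.05. Sgk1 had the only positive difference, 0.58 ± 0.24 (SE; limma adjusted p = 0.223), at percentile 97.0 of all tested loci. By limma, Tsc22d3 had −0.59 ± 0.24 (adjusted p = 0.227) and Nr3c2 −0.71 ± 0.33 (adjusted p = 0.240). Per1, Dusp1, Nr3c1 and Fkbp5 had −0.28, −0.29, −0.11 and −0.09, with limma adjusted p between 0.353 and 0.826. The median of the 7 was −0.28, the same as over all tested loci.

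The sign depended on the scale for 4 of the 7 members. The median of all loci was −0.28 per 10000 peaks, 0.31 without division by list length and 0.00 with lists of equal length. Sgk1 was higher in FGR on each scale, with 0.58, 1.17 and 0.71, so that it lay above the median of all loci by more than its SE each time. Tsc22d3 had −0.59, 0.00 and −0.24, and Nr3c2 −0.71 and −0.12 on the first 2 scales. Fkbp5, Per1 and Dusp1 were negative on the first scale and positive on the other 2. Nr3c1 was positive on 1 of these scales, without the division (0.48). Within deposit sets 1 and 2 alone, each a comparison of 2 against 2 libraries, Sgk1 had 0.50 ± 0.35 and 0.67 ± 0.27 (SE; limma adjusted p = 0.369 and 0.327). Nr3c2 had −0.32 ± 0.46 (limma adjusted p = 0.666) in set 1, where it lay 0.10 above the median of all loci. It had −1.10 ± 0.32 (limma adjusted p = 0.0472) in set 2, where the same fit called 48 loci higher and 49 lower.

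**Figure D5:**
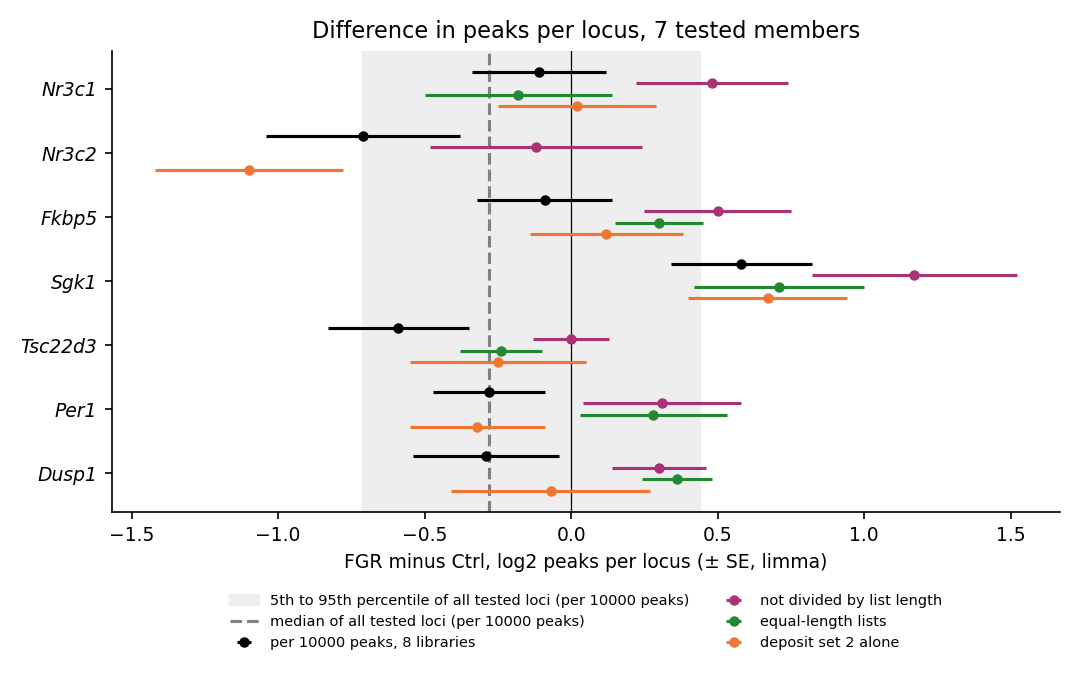
FGR minus Ctrl difference in peaks per locus (log2, x axis; points with SE bars from limma) for the 7 tested members under 4 settings; the grey band runs from percentile 5 to 95 of all tested loci (−0.71 to 0.44) and the dashed line is their median. The 4 points of Sgk1 lie to the right of this band, which holds for the first setting, while Nr3c1, Fkbp5, Per1 and Dusp1 cross 0 between settings; Nr3c2 had no value with lists of equal length, where its mean fell under 2 peaks.

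Around the members, the receptor's partners were the most uniformly accessible group. All 14 genes of a list of chaperones and coregulators, such as the heat shock protein gene Hsp90ab1 and the coactivator gene Ncoa1, showed a gene-end peak in each of the 8 libraries, against 3 of the 10 members (Fkbp5, Per1 and Dusp1) and 31.9% of all genes. In that list 14 loci were tested and 0 called, with a median difference of −0.18. Its member Ncoa2, a coactivator of nuclear receptors, held an FGR-only region and 4, 2, 4 and 3 peaks in Ctrl against 8, 6, 8 and 6 in FGR, with a difference of 0.44 ± 0.23 (limma adjusted p = 0.279).

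Among 29 other glucocorticoid-responsive genes, 14 had a gene-end peak in all 8 libraries and 4 in none. None of the 15 loci tested was called, 3 were higher and 12 lower in FGR per 10000 peaks, a scale on which 6228 of all 8037 tested loci were lower, and the median was −0.19. Among 17 other steroid and nuclear receptors, 4 had such a peak in all 8 libraries and 3 in none. None of 10 tested loci was called, with a median of −0.30. At the thyroid hormone receptor gene Thrb, 0 Ctrl and 3 FGR libraries showed a gene-end peak, and a gene-end difference of 3 or more libraries towards FGR was seen at 265 of 21887 genes (1.21%).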

How the data were processed

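ATAC-seq of hippocampal microglia gave 1 peak list per library, with 4 Ctrl and 4 FGR libraries grouped by their titles. Tools listed in the submitters' processing notes, without roles, are MACS2 2.2.7.1, DiffBind 3.12.0, Bowtie2 2.4.5, Trim Galore 0.6.5 and SAMtools 1.3.1, with build mm10. Library preparation used a Vazyme kit per the labels. Read shifting, duplicate removal and blacklists were not given in the sources used here. The authors called peaks per library, since each has its own list. The deposited score is a display value and was not used. The deposited fold was read as the ratio of summit pileup to local background after adding 1 to each. The deposited −log10 p and −log10 q measure the excess over that background. Whole-number pileups followed from the deposited fold and −log10 p for 100% of peaks within 0.001, assuming a Poisson tail. Read totals were not used here.

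Loci came from a RefSeq gene table of GRCm38.p6, which shares coordinates with mm10, and the table has no exons. Peaks sharing at least 1 bp across libraries were joined into regions. Peaks per locus were tested on all protein-coding loci that averaged 2 or more peaks, with limma 3.58.1 in R 4.3.3 (trend, group only, Benjamini-Hochberg over 8037 loci). Regions called in 2 or more libraries were tested with Fisher's exact test. Scripts were tested on simulated data and ran in Python 3.11.15 with matplotlib 3.10.9, scipy 1.17.1, pandas 2.3.3 and numpy 2.4.6.

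All 10 members are named. Regions are named where called in 6 or more libraries, where groups differ by 3 or more libraries, or where strongest, and others named were chosen after their values were seen. Genes of other lists are named when limma calls them, when a gene-end peak differs by 3 or more libraries or when they hold a region of 1 group only. Hsp90ab1 and Ncoa1 are examples chosen after their values were seen. Some genes that the rule would name are not reported here. The members and lists were chosen with earlier results of these data known. Deposit sets are replicates 1 and 2 against 3 and 4, which carry different label fields, and nothing says that they were processed apart.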

Additional observations from a re-analysis of the deposited data

Results flagged for a closer look

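In FGR replicate 4 the Klf9 locus held 1.14 peaks per 10000 peaks of the library, against 0.339 to 0.429 in the other 3 FGR libraries, a gap of 0.888 of the group's range, beyond Dixon's 95% limit for 4 samples. The values rest on 3 peaks against 1 in each of the others. Of 20 groups checked in this way, 1 in 20 stands out so by chance.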

How the results depend on the processing

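The count of loci called by limma moved with most settings. The 1 locus called higher became 7 with a pseudocount of 1, 7 with no filter, 13 with lists of equal length, 0 without both Ctrl 1 and 2, 0 with pairs averaged, 10 without division by list length, 4 in deposit set 1 and 48 in deposit set 2. The 0 called lower became 50, 9 and 7 in the first 3 of these, 2 with 10 kb flanks, 1 without the division, and 5 and 49 in the deposit sets. Leaving out 1 library gave 0 to 2 in either direction. With the replicate number as a block there were 54 and 87. The numbers were shared without other evidence of pairing, since deviations of same-numbered libraries correlated at −0.02, 0.10, 0.07 and 0.03, and the block called no member.

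No member locus was called except Nr3c2 in deposit set 2, an alternative chosen after seeing the data as was set 1, which made the count 1. Sgk1 stayed higher in FGR in all 21 alternatives (0.45 to 1.17, adjusted p 0.144 to 0.488) and Tsc22d3 was never higher (−0.93 to 0.00). With 1 library left out, the difference ranged from −0.24 to 0.01 for Nr3c1 and from −0.23 to 0.07 for Fkbp5. Differences turned positive for Nr3c1 with −log10 q of at least 5 (0.22), without FGR 1 (0.01), without Ctrl 1 and 2 (0.02), undivided (0.48) and in set 2 (0.02). They did so for Fkbp5 with equal lists (0.30), without Ctrl 2 (0.04), without FGR 1 (0.07), without Ctrl 1 and 2 (0.01), undivided (0.50) and in set 2 (0.12). For Per1 this happened with 50 kb flanks (0.05), −log10 q of at least 5 (0.01), equal lists (0.28) and undivided (0.31), and for Dusp1 with equal lists (0.36), without Ctrl 1 and 2 (0.01) and undivided (0.30). The cause was not tested. The 2 FGR-only member regions became 0 with equal lists and 5 in deposit set 1 alone, and 2 to 3 with 1 library left out. With −log10 q of at least 5 the count was still 2, with the upper end of Nr3c1 in place of the second Sgk1 region. Over all regions the FGR-only count ranged from 128 to 3016 and the Ctrl-only count from 8 to 635. These upper values came from deposit sets 1 and 2 in turn. Each set holds 2 against 2 libraries, a looser criterion, which also applies to the 5 member regions. With 1 library left out, the ranges over all regions were 461 to 884 and 15 to 79. The 3 members with a gene-end peak in every library were 3 in all 12 alternatives. Nr3c2 had no value with −log10 q of at least 5 or with equal lists, where its mean fell under 2 peaks. Requiring 100 bp of overlap could change nothing, since peaks are longer. Presence of a peak depends on depth and on list length, and a region not called is not shown to be closed.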
